A study of Rattus norvegicus with 4 samples.

Results

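Axon guidance genes were examined in rat neural stem/progenitor cells, cultured progenitors that can give neurons and glia, on 2 culture platforms in 2 media. They were chosen by symbol: Sema, Slit, Robo, Ntn or Nrp followed by a digit, Plxn followed by a letter, Epha, Ephb, Efna or Efnb followed by a digit, and Dcc. This gave 56 of the 16881 symbols in the count files: 19 semaphorins, 2 neuropilins, 5 plexins, 5 netrins with their receptor Dcc, 3 Slits, 4 Robos, 7 ephrins and 11 Eph receptors. The cells were wild type, and the 4 groups were PUCL@CNT1 in differentiation medium, bare PUCL in differentiation medium, PUCL@CNT1 in maintenance medium and bare PUCL in maintenance medium. Maintenance groups had 24 h in knockout DMEM/F12 with StemPro Neural Supplement. Differentiation groups were then moved to B-27 Plus Neuronal Culture medium and kept there for another 1.5 d; the effect of medium and that of time cannot be told apart. The labels spell out neither PUCL nor CNT1. The series title presents PUCL@CNT as an electroconductive scaffold meant to steer these cells towards neurons. Each group was 1 library, so a pair of libraries is described with its counting error and carries no test between conditions.

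Guidance ligands steer growing axons and migrating cells by attraction or repulsion. Secreted class 3 semaphorins act mostly through neuropilins paired with plexins, and membrane semaphorins bind plexins directly. Netrins act through Dcc and its relatives, Slits through Robo receptors, and ephrins through Eph receptor tyrosine kinases on neighbouring cells. In the neural stem cell niche the Eph and ephrin system is also known to act on progenitor division and migration.

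Libraries held between 6035848 and 6855984 counts, and members took 7757, 9217, 7338 and 7027 of them in the 4 groups in the order above. Values are raw counts, or CPM, the count relative to library size, with library sizes corrected by the trimmed mean of M values. Of the stem/progenitor markers Nes, Sox2, Vim, Fabp7 and Sox9 were well covered in every library, and so was Slc1a3. Pax6 had 19, 246, 21 and 53 counts and Prom1 7, 73, 16 and 36, both highest in the PUCL differentiation library, while Msi1 stood at 0 in all 4 and Hes5 at 0, 0, 0 and 2. Sox2 and Slc1a3 were also highest in the PUCL differentiation library, while Vim, Nes, Fabp7 and Sox9 were highest in the PUCL@CNT1 differentiation library. Summed over the 10 genes the list lay at 10600, 8580, 7420 and 7010 CPM of the uncorrected library totals, mostly from Vim. On the same scale, summed markers of oligodendrocyte lineage cells (8 of 8 measured) lay at 1490, 1500, 859 and 932 CPM, neuronal markers (8 of 8) at 116, 201, 282 and 293 CPM, and astrocyte markers (5 of 6) at 466, 975, 520 and 526 CPM. Map2 and Elavl4 made up most of the neuronal sum. All neuronal markers but Dcx and Tubb3 were lower in differentiation medium on both platforms. Dcx was higher there on both platforms, and Tubb3 on PUCL@CNT1 only. The astrocyte peak in the PUCL differentiation library came mostly from S100b. Aldoc, Gfap and Aqp4 were also highest in that library, while Gja1 was lowest in it. Mural and fibroblast markers (6 of 9, with Rgs5, Lum and Dcn at 0) lay at 558, 633, 960 and 1350 CPM, and endothelial markers (3 of 6, with Pecam1, Cdh5 and Tek at 0) at 28.6, 2.74, 18.2 and 14.6 CPM. Of 6 microglial markers 5 stood at 0. These lists move with the groups as well, and their part in the values below was not tested. In bulk RNA, fewer cells of a type and less RNA per cell cannot be told apart.

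Of the 56 members, 36 had 10 or more counts in at least 1 library and were tested. Another 6 had between 1 and 5 counts over all 4 libraries (Dcc, Ntn3, Sema3d, Sema5b, Sema6c and Sema7a). The other 14 stood at 0 in every library: Efna1, Efna2, Efna5, Efnb2, Epha3, Epha10, Ephb2, Ntn5, Robo1, Robo4, Sema3g, Sema4f, Sema4g and Slit3. A count of 0 allows up to 3 counts, between 0.451 and 0.48 CPM depending on the library. This bound covers counting error alone. The annotation used for counting is not given, so a 0 need not mean that the gene was silent. Dcc, the main netrin receptor of commissural axons, had a single count, in the PUCL maintenance library. The mean count of tested members ran from 4 (Epha1) to 2734 (Plxnb2), with a median of 85.2 against 150 over all 10516 genes tested.

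**Figure D1:**
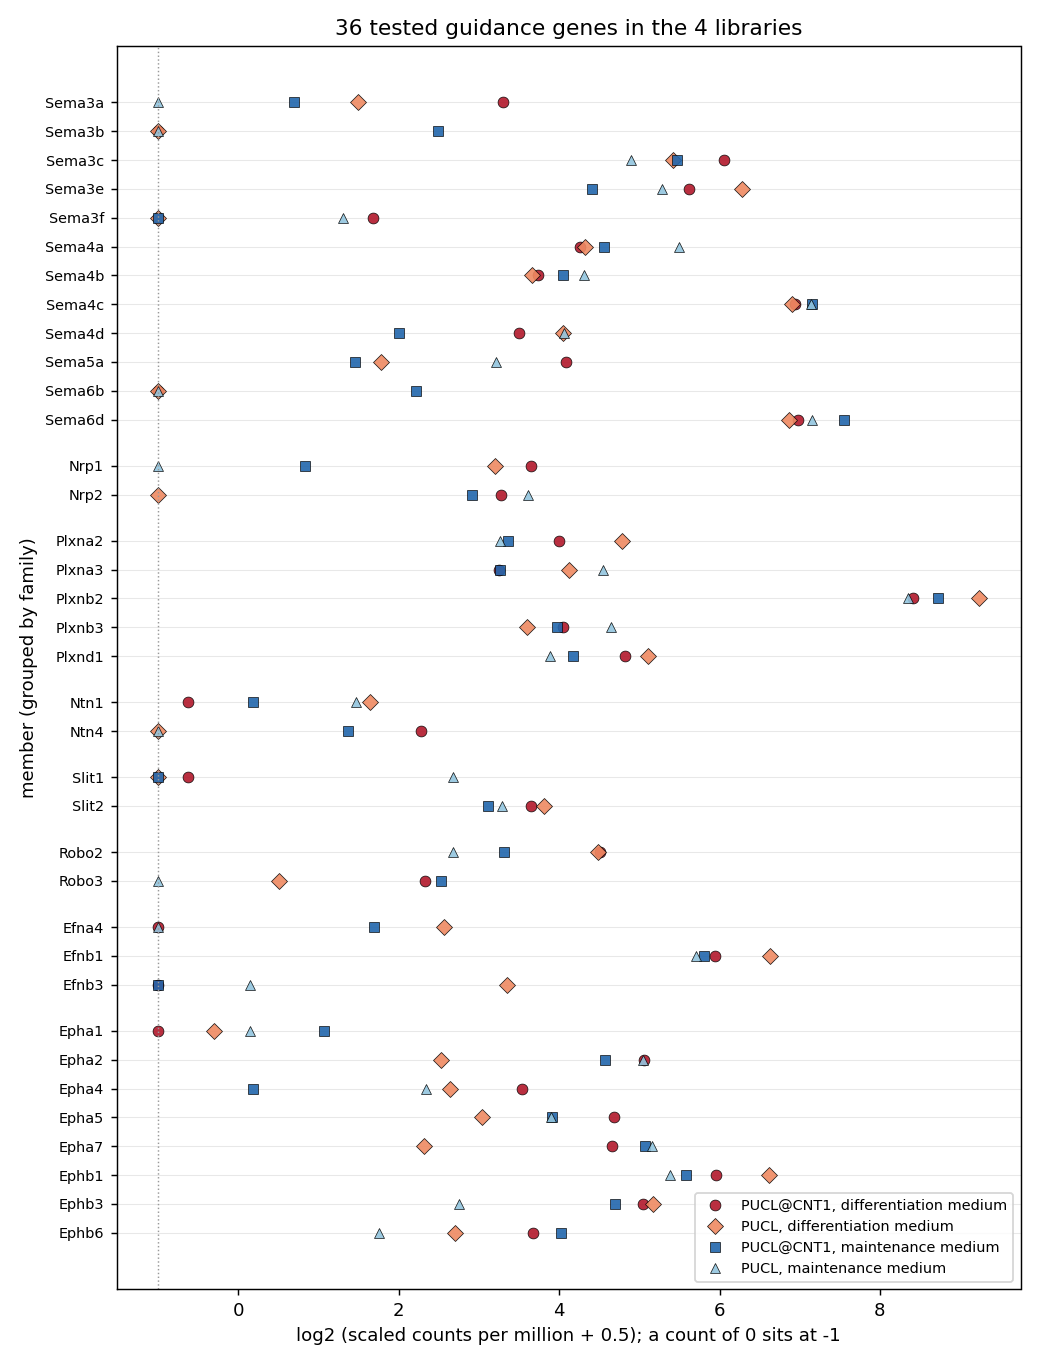
Scaled CPM of the 36 tested guidance genes on a log2 axis (0.5 added), grouped by family, with 1 marker for each of the 4 libraries. Counts of 0 sit on the dotted line at -1: 5 members were there in PUCL@CNT1 differentiation medium, 6 in PUCL differentiation medium, 3 in PUCL@CNT1 maintenance medium and 7 in PUCL maintenance medium.

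Many members scattered strongly between single libraries. A count of 0 in 1 library beside 30 or more in another was seen for 8 of 36 members (22.2%) and for 11.6% of all genes tested. Among genes with a mean of 10 to 100 counts the shares were 41.2% of 17 members and 33.5% of 3290 genes. The additive fit in edgeR gave a common coefficient of variation of 0.62 between libraries once platform and medium were accounted for. For a pair of libraries the text therefore uses a size rule: the scaled counts had to differ 2-fold or more, with the bound of the 95% interval that is closer to 1 still past 1.5-fold. Counts of members past this rule stand beside the share of all genes past it. That interval covers counting error alone.

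None of the 36 tested members passed the edgeR quasi-likelihood test for either factor. For the change to differentiation medium, 0 of 36 members were called at an adjusted p of 0.05, against 2.81% of all genes tested. At an unadjusted p under 0.05 there were 4 members (11.1%) against 12.1% of all genes, and DESeq2 and limma-voom also called 0. The median fitted log2 change of members was 0.42, against 0.00 for all genes. For PUCL@CNT1 against PUCL, 0 of 36 members were called against 0.456% of all genes. At an unadjusted p under 0.05 there were 0 members against 6.95% of all genes, and limma-voom again called 0. DESeq2 also called 0, but it gave some members no adjusted p and so could not call them. Among these were Sema3e, Sema3a, Robo3, Epha7, Epha2 and Epha5. The median fitted log2 difference was 0.01 for members and -0.00 for all genes. In this fit each platform serves as a repeat of the medium change and each medium as a repeat of the platform difference, with 1 residual degree of freedom.

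In the medium pair on PUCL@CNT1, 8 members (22.2%) were higher in differentiation medium, against 16.5% of all genes past the same rule, and 4 (11.1%) were lower, against 14.5%. The lower members, Efna4, Epha1, Sema3b and Sema6b, all stood at 0 in the PUCL@CNT1 differentiation library. Epha1, Sema3b and Sema6b were tested only through the PUCL@CNT1 maintenance library, where they stood higher. In the medium pair on PUCL, 10 members (27.8%) were higher, against 16.1%, and 8 (22.2%) lower, against 15.3%. Efnb3, higher in this pair, and Slit1, lower in it, were likewise tested only through the library where they stood higher. Of members with a mean of 100 to 1000 counts, 1 of 13 was past the rule on PUCL@CNT1 and 8 of 13 on PUCL, against 22% and 21.4% of 4936 genes in that range. Of members with a mean of 10 to 100 counts, 7 of 17 (41.2%) were past it on PUCL@CNT1 and 9 of 17 (52.9%) on PUCL, against 48.3% and 50.5% of 3290 genes. Log2 ratios had the same sign on both platforms for 19 of the 32 members with a ratio on each (59.4%), close to the 59% of all genes. Past the rule in the same direction on both platforms, 4 members (11.1%) were higher in differentiation medium, against 4.35% of all genes, and 0 were lower, against 3.53%. The 4 were Nrp1, Robo2, Sema3a and Sema3e. Of these, Nrp1 and Sema3a reached 10 counts in differentiation medium only, so they were tested through the medium where they stood higher. The same filter applied to all genes.

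**Figure D2:**
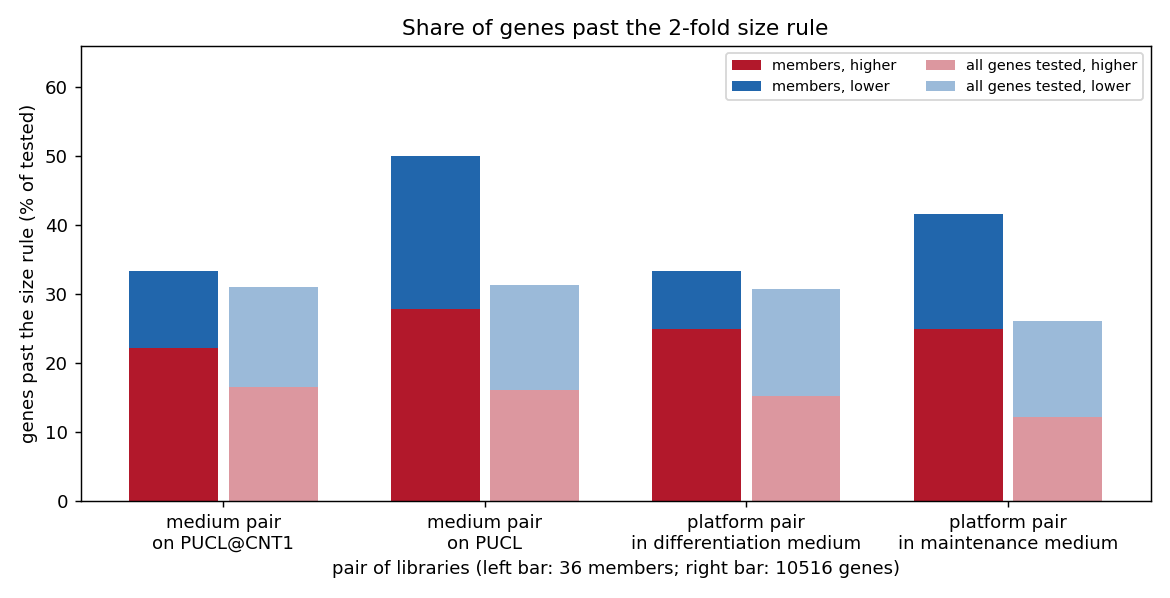
Percentage of genes past the size rule in each pair of libraries, split into higher and lower in differentiation medium (medium pairs) or on PUCL@CNT1 (platform pairs). Left bars are the 36 tested members and right bars all 10516 genes tested; the members' bar stands highest in the medium pair on PUCL, at 50% against 31.3%.

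Sema3e and Robo2 had counts in all 4 libraries and were higher in differentiation medium on both platforms. Sema3e, a secreted semaphorin that binds plexin-D1 without a neuropilin, had 323 counts on PUCL@CNT1 and 501 on PUCL in differentiation medium, against 130 on PUCL@CNT1 and 254 on PUCL in maintenance medium. Both differentiation libraries lay above both maintenance libraries. How many of all genes show such an order, here and for the members below, was not counted. The ratio was 2.34 on PUCL@CNT1 (95% interval 1.90 to 2.88) and 2.01 on PUCL (1.73 to 2.35), and the fitted log2 change was 1.11 (SE 0.437, edgeR unadjusted p 0.0126, adjusted p 0.199). Robo2, a Slit receptor, had 148 counts on PUCL@CNT1 and 141 on PUCL in differentiation medium, against 59 on PUCL@CNT1 and 39 on PUCL in maintenance medium. Here too the media did not overlap, with ratios of 2.36 on PUCL@CNT1 (1.73 to 3.24) and 3.69 on PUCL (2.57 to 5.40). Its fitted log2 change of 1.56 had an SE of 0.901 and an edgeR adjusted p of 0.546.

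Sema3a and Nrp1, a ligand and its co-receptor, were near 0 in maintenance medium on both platforms. Sema3a, a secreted repellent of many axons, had 62 counts on PUCL@CNT1 and 15 on PUCL in differentiation medium, against 7 on PUCL@CNT1 and 0 on PUCL in maintenance medium. The ratio was 8.32 on PUCL@CNT1 (3.81 to 21.6), and the PUCL library in differentiation medium was at least 5.10-fold higher, with the 0 set at 3 counts. Such a bound leaves out the counting error of the other library; the lower 95% limit of the ratio was 3.66 here. Nrp1, which binds Sema3a and also vascular endothelial growth factor, had 80 counts on PUCL@CNT1 and 56 on PUCL in differentiation medium, against 8 on PUCL@CNT1 and 0 on PUCL in maintenance medium. Its ratio was 9.40 on PUCL@CNT1 (4.55 to 22.5), and on PUCL it was at least 19.0-fold higher, with a lower 95% limit of 15.0. Neither was called in edgeR, with adjusted p of 0.828 for Sema3a and 0.471 for Nrp1, and at these depths such ratios rest on few reads.

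Promoter sequences are shown for the members that stood higher in differentiation medium on both platforms, since these moved together; the RefSeq table on the GRCr8 assembly held 3 of the 4, all but Sema3a. Each runs 5′ to 3′ on the gene's own strand from 250 bases before to 50 bases after the annotated start, and capitals mark matches to the E-box, CANNTG, the core letters bound by basic helix-loop-helix factors such as proneural proteins. Nrp1 lies at chr19:73256307-73256606 (plus strand), Robo2 at chr11:26526363-26526662 (minus strand) and Sema3e at chr4:21510325-21510624 (minus strand).
Nrp1: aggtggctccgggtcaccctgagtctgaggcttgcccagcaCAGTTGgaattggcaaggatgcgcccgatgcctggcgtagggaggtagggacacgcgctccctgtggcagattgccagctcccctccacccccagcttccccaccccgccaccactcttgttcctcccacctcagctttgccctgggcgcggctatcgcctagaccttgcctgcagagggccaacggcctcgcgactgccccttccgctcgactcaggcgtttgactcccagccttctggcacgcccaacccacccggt
Robo2: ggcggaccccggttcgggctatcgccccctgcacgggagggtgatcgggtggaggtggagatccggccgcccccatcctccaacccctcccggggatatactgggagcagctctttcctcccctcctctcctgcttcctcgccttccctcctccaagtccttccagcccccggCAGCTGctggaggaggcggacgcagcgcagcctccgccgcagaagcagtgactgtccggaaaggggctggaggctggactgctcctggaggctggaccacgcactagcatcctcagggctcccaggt
Sema3e: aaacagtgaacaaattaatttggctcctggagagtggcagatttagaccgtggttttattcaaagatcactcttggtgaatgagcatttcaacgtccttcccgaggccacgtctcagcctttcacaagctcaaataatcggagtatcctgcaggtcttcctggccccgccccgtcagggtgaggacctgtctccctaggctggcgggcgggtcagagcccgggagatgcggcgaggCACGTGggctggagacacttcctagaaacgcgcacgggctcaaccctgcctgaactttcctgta
Each of the 3 windows held 1 E-box. Over both strands the E-box was found in 72.1% of all 33469 promoter windows of this length and in 14 of the 26 windows of tested members (53.8%). The GC box GGGCGG was found in 33.1% of all windows and in 16 of 26 (61.5%), with 0, 1 and 2 matches in Nrp1, Robo2 and Sema3e, and CACNAG, the N-box of Hes repressors, in 43.1% and in 11 of 26 (42.3%), with 0, 1 and 1. None of these GC box or N-box matches overlapped the E-box in the 3 windows. The median share of G and C letters was 51.7% over all windows. Windows of tested members ran from 36.3% (Sema3c and Sema6b) to 83% (Plxnd1), most of them above that median. The part of this letter content in the GC box share was not tested. The counts were made on rn6 and say nothing of binding, so a match is a description of letters only.

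**Figure D3:**
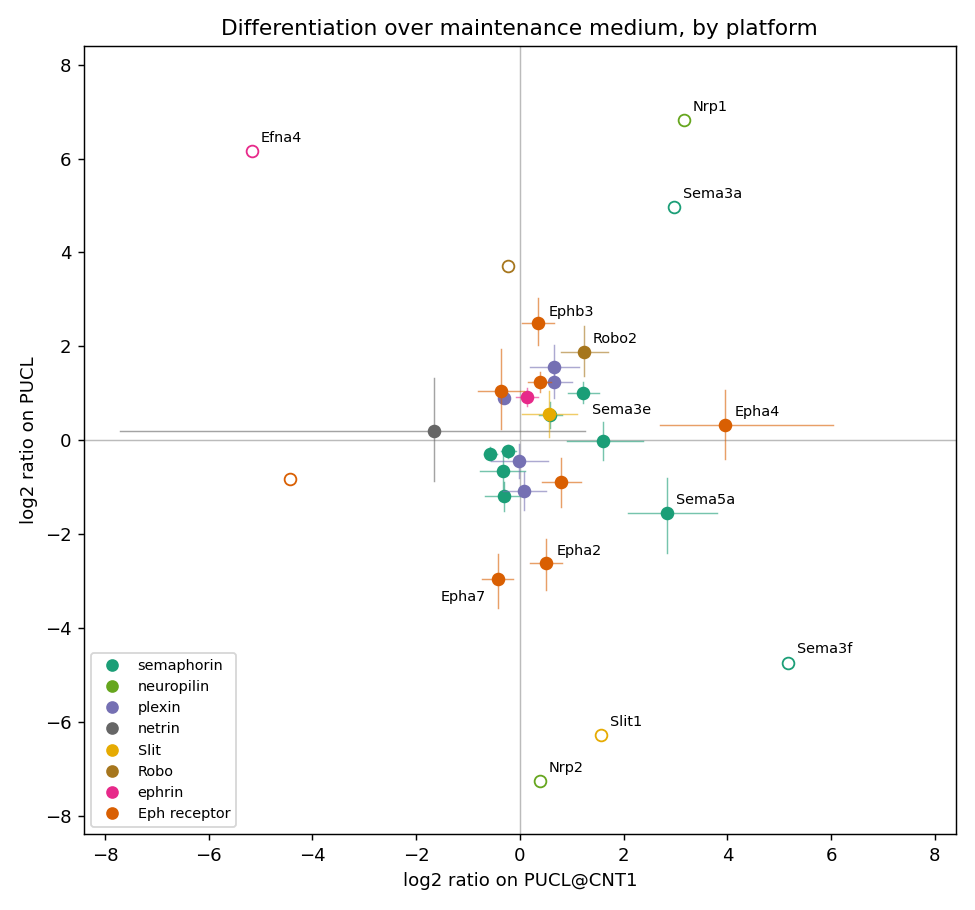
Log2 ratio of differentiation over maintenance medium on PUCL@CNT1 (x axis) and on PUCL (y axis) for the 32 members with a ratio on both platforms, coloured by family. Lines are 95% counting intervals; open circles have a 0 in at least 1 of the 4 counts, so that their position depends on the 0.5 added and no interval is drawn. Sema3a, Nrp1, Robo2 and Sema3e lie in the upper right, Sema5a and Sema3f in the lower right, and Efna4 in the upper left.

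Among semaphorins, class 3 members together summed to 127 CPM on PUCL@CNT1 and 122 CPM on PUCL in differentiation medium, against 70.9 CPM on PUCL@CNT1 and 69.9 CPM on PUCL in maintenance medium. Most of that came from Sema3e and from Sema3c, a secreted ligand of neuropilins that had 438 counts on PUCL@CNT1 and 275 on PUCL in differentiation medium, against 274 on PUCL@CNT1 and 194 on PUCL in maintenance medium. Sema3c was higher on PUCL@CNT1 in each medium and higher in differentiation medium on each platform, by ratios of 1.45 to 1.55, all under the size rule. Class 4 members together summed to 164 CPM on PUCL@CNT1 and 167 CPM on PUCL in differentiation medium, against 184 CPM on PUCL@CNT1 and 221 CPM on PUCL in maintenance medium. Sema4c, a membrane ligand of plexin-B2, was among the steadiest members, with 810 counts on PUCL@CNT1 and 770 on PUCL in differentiation medium, against 884 on PUCL@CNT1 and 928 on PUCL in maintenance medium. Sema6d, a membrane ligand of A-type plexins, had 838 counts on PUCL@CNT1 and 752 on PUCL in differentiation medium, against 1166 on PUCL@CNT1 and 938 on PUCL in maintenance medium, with medium ratios of 0.675 on PUCL@CNT1 (0.617 to 0.739) and 0.818 on PUCL (0.742 to 0.901).

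Other semaphorins differed in 1 library. Sema4d, a ligand of B-type plexins, had 72 counts on PUCL@CNT1 and 104 on PUCL in differentiation medium, against 22 on PUCL@CNT1 and 107 on PUCL in maintenance medium, so that the PUCL@CNT1 maintenance library stood apart below the other 3. Sema4a had 124 counts on PUCL@CNT1 and 126 on PUCL in differentiation medium, against 144 on PUCL@CNT1 and 294 on PUCL in maintenance medium, and here the PUCL maintenance library stood above the rest. Sema3b, with 32 counts, and Sema6b, with 26, were seen in the PUCL@CNT1 maintenance library and stood at 0 in the other 3. Sema4b ran between 79 and 128 counts and passed the size rule in no pair.

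Sema5a took opposite directions on the 2 platforms. This membrane semaphorin with thrombospondin repeats, a ligand of plexin-B3, had 110 counts on PUCL@CNT1 and 19 on PUCL in differentiation medium, against 14 on PUCL@CNT1 and 58 on PUCL in maintenance medium. Its medium ratio was 7.38 on PUCL@CNT1 (4.22 to 14.0) and 0.334 on PUCL (0.188 to 0.569). Sema3f, a ligand of Nrp2, had 18 counts on PUCL@CNT1 and 0 on PUCL in differentiation medium, against 0 on PUCL@CNT1 and 13 on PUCL in maintenance medium. Efna4, a lipid-anchored ephrin, showed the reverse, with 0 counts on PUCL@CNT1 and 35 on PUCL in differentiation medium, against 17 on PUCL@CNT1 and 0 on PUCL in maintenance medium. These were 3 of 36 members (8.33%) with opposite directions past the rule, where all genes had 4.19%. Read between platforms, the same counts also put these 3 members in opposite directions in the 2 media, against 4.98% of all genes. This is the same pattern and no separate result.

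Semaphorin receptors included the member with the most reads. Plxnb2, a receptor of class 4 semaphorins such as Sema4c, had 2251 counts on PUCL@CNT1 and 3902 on PUCL in differentiation medium, against 2630 on PUCL@CNT1 and 2155 on PUCL in maintenance medium. The PUCL differentiation library stood above the other 3. Its medium ratio was 0.804 on PUCL@CNT1 (0.760 to 0.851) and 1.85 on PUCL (1.75 to 1.95), under the size rule on both platforms, with an edgeR adjusted p of 0.752 for the medium change. Plxnd1, the Sema3e receptor, had 185 counts on PUCL@CNT1 and 219 on PUCL in differentiation medium, against 110 on PUCL@CNT1 and 94 on PUCL in maintenance medium, and the media did not overlap. The ratio was 1.58 on PUCL@CNT1 (1.24 to 2.02) and 2.38 on PUCL (1.86 to 3.06), and the edgeR adjusted p was 0.671. Plxna2 showed a like order, with 103 counts on PUCL@CNT1 and 175 on PUCL in differentiation medium, against 61 on PUCL@CNT1 and 60 on PUCL in maintenance medium.

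Plxna3 and Plxnb3 were highest in the PUCL maintenance library. Plxna3, a receptor used with neuropilins, had 60 counts on PUCL@CNT1 and 109 on PUCL in differentiation medium, against 57 on PUCL@CNT1 and 151 on PUCL in maintenance medium, so both PUCL@CNT1 libraries lay below both PUCL libraries. Its platform ratio was 0.535 in differentiation medium (0.384 to 0.740) and 0.398 in maintenance medium (0.288 to 0.544), of which the second passed the size rule. Plxnb3 had 107 counts on PUCL@CNT1 and 75 on PUCL in differentiation medium, against 95 on PUCL@CNT1 and 162 on PUCL in maintenance medium. Nrp2, the co-receptor of Sema3f, had 61 counts on PUCL@CNT1 and 0 on PUCL in differentiation medium, against 44 on PUCL@CNT1 and 77 on PUCL in maintenance medium. Nrp2 in differentiation medium was therefore at least 19.77-fold higher with PUCL@CNT1 (lower 95% limit 15.6), and on PUCL it was at least 25.16-fold lower in differentiation medium.

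Netrins and Slit1 had at most 39 counts in any library. Ntn4, a laminin-related netrin of basement membranes, had 29 counts in differentiation medium and 13 in maintenance medium on PUCL@CNT1, against 0 in both PUCL libraries. Ntn1, the classical Dcc ligand, had 1 count on PUCL@CNT1 and 17 on PUCL in differentiation medium, against 4 on PUCL@CNT1 and 15 on PUCL in maintenance medium. Ntn1 was thus lower on PUCL@CNT1 in both media, with platform ratios of 0.0572 (0.00137 to 0.365) in differentiation medium and 0.282 (0.0680 to 0.884) in maintenance medium. Slit2, a secreted Robo ligand, had 80 counts on PUCL@CNT1 and 88 on PUCL in differentiation medium, against 51 on PUCL@CNT1 and 61 on PUCL in maintenance medium. The media did not overlap, but the ratios of 1.47 on PUCL@CNT1 (1.02 to 2.14) and 1.47 on PUCL (1.05 to 2.08) stayed under the size rule. Slit1 had 1 count on PUCL@CNT1 and 0 on PUCL in differentiation medium, against 0 on PUCL@CNT1 and 39 on PUCL in maintenance medium. Robo3, a receptor of commissural axons, had 30 counts on PUCL@CNT1 and 6 on PUCL in differentiation medium, against 33 on PUCL@CNT1 and 0 on PUCL in maintenance medium.

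The 7 EphA symbols summed to 93.9 CPM on PUCL@CNT1 and 23.5 CPM on PUCL in differentiation medium, against 73.2 CPM on PUCL@CNT1 and 87.5 CPM on PUCL in maintenance medium. The 4 EphB symbols summed to 106 CPM on PUCL@CNT1 and 139 CPM on PUCL in differentiation medium, against 88.7 CPM on PUCL@CNT1 and 50.5 CPM on PUCL in maintenance medium. The EphA sum was low in the PUCL differentiation library and the EphB sum in the PUCL maintenance library. Not every receptor had the order of its class, as the counts of Epha4 and Ephb6 show. These classes were summed after the values of single genes had been seen.

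Epha2, a receptor also abundant in epithelia, had 218 counts on PUCL@CNT1 and 34 on PUCL in differentiation medium, against 145 on PUCL@CNT1 and 215 on PUCL in maintenance medium. Epha7 had 164 counts on PUCL@CNT1 and 29 on PUCL in differentiation medium, against 207 on PUCL@CNT1 and 233 on PUCL in maintenance medium. Both genes were low in the PUCL differentiation library and had 145 or more counts in each of the other 3. In differentiation medium the ratio of PUCL@CNT1 over PUCL was 6.24 for Epha2 (4.33 to 9.23) and 5.50 for Epha7 (3.69 to 8.47), while in maintenance medium it was 0.712 (0.573 to 0.883) and 0.938 (0.774 to 1.14). Epha5 had 168 counts on PUCL@CNT1 and 50 on PUCL in differentiation medium, against 91 on PUCL@CNT1 and 95 on PUCL in maintenance medium, with a ratio of 3.27 in differentiation medium (2.37 to 4.58) and 1.01 in maintenance medium (0.750 to 1.36). None of the 3 was called for platform in edgeR (fitted log2 1.04 for Epha2, 1.14 for Epha7 and 0.86 for Epha5; adjusted p 0.976, 0.872 and 1.00), a fit in which a difference between the media counts as spread. With the PUCL differentiation library and the medium term left out, the fitted platform difference turned to -0.21 for Epha2 and -0.28 for Epha7. For the medium change Epha7 had a fitted log2 of -1.66 (SE 0.699, edgeR unadjusted p 0.0199, adjusted p 0.257), and -1.23 with the platform term left out. With 1 library left out as well, it ran from -2.93 to -0.47 and was weakest without the PUCL differentiation library.

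Epha4, a receptor for ephrins of both classes, had 74 counts on PUCL@CNT1 and 37 on PUCL in differentiation medium, against 4 on PUCL@CNT1 and 30 on PUCL in maintenance medium. Its low library was thus another one, PUCL@CNT1 in maintenance medium, and the medium ratio was 17.4 on PUCL@CNT1 (6.51 to 65.5) and 1.26 on PUCL (0.756 to 2.11). Epha1 reached at most 10 counts, in the PUCL@CNT1 maintenance library.

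Ephb1 and its ligand Efnb1 showed like orders across the 4 libraries. Ephb1 had 409 counts on PUCL@CNT1 and 630 on PUCL in differentiation medium, against 296 on PUCL@CNT1 and 273 on PUCL in maintenance medium. Its medium ratio was 1.30 on PUCL@CNT1 (1.11 to 1.51) and 2.35 on PUCL (2.04 to 2.72), and the fitted log2 change was 0.81 (SE 0.388, edgeR unadjusted p 0.0408, adjusted p 0.375). Efnb1, a transmembrane ephrin that can signal back into its own cell, had 405 counts on PUCL@CNT1 and 635 on PUCL in differentiation medium, against 346 on PUCL@CNT1 and 342 on PUCL in maintenance medium. For both genes the PUCL differentiation library was the highest and the media did not overlap. For Efnb1 the gap between media on PUCL@CNT1 lay within counting error. Efnb1 had medium ratios of 1.10 on PUCL@CNT1 (0.950 to 1.27) and 1.89 on PUCL (1.66 to 2.17). Efnb3 had 63 counts on PUCL in differentiation medium and 4 on PUCL in maintenance medium, and stood at 0 in both PUCL@CNT1 libraries.

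Ephb3, another receptor of B-type ephrins, had 216 counts on PUCL@CNT1 and 229 on PUCL in differentiation medium, against 159 on PUCL@CNT1 and 41 on PUCL in maintenance medium. The PUCL maintenance library stood apart below the others, giving a medium ratio of 1.28 on PUCL@CNT1 (1.03 to 1.58) and 5.70 on PUCL (4.07 to 8.15) and a fitted log2 change of 1.41 (SE 0.671, edgeR unadjusted p 0.0389, adjusted p 0.366). With the platform term left out that change was 1.10. With 1 library left out as well, it ran from 0.42, without PUCL maintenance, to 2.45, without PUCL@CNT1 maintenance. Ephb6, which lacks kinase activity, was also lowest there, with 82 counts on PUCL@CNT1 and 39 on PUCL in differentiation medium, against 99 on PUCL@CNT1 and 19 on PUCL in maintenance medium. Both PUCL@CNT1 libraries lay above both PUCL libraries for Ephb6, with a platform ratio of 2.05 in differentiation medium (1.38 to 3.08) and 5.50 in maintenance medium (3.34 to 9.52).

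**Figure D4:**
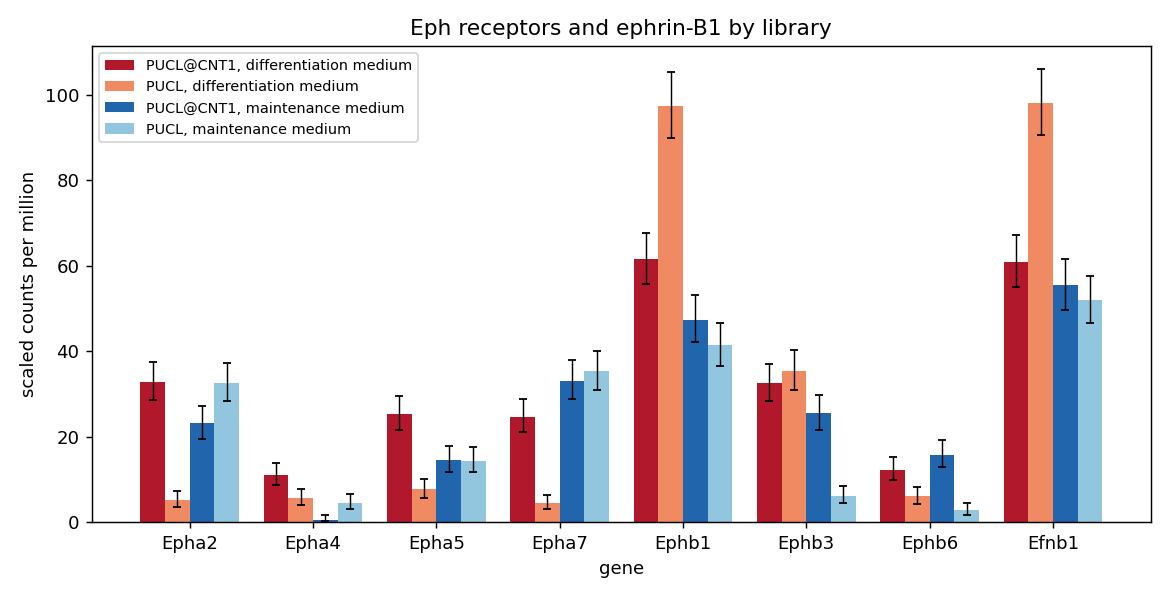
Scaled CPM of 7 Eph receptors and ephrin-B1 in the 4 libraries; bars are single libraries and lines are exact 95% Poisson intervals, which cover counting error only. Epha2, Epha5 and Epha7 are lowest, and Ephb1 and Efnb1 highest, in the PUCL differentiation library.

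Between platforms, 9 members (25%) were higher on PUCL@CNT1 in the differentiation medium pair, against 15.2% of all genes past the size rule, and 3 (8.33%) were lower, against 15.6%. In the maintenance medium pair 9 members (25%) were higher on PUCL@CNT1, against 12.2%, and 6 (16.7%) lower, against 13.9%. Sema3b and Sema6b, higher in that pair, and Slit1, lower in it, were tested only through the library where they stood higher. Efnb3 and Ntn1, lower in the differentiation medium pair, were tested only through PUCL libraries. At a mean of 10 to 100 counts, 41.2% of 17 members were past the rule in differentiation and 64.7% in maintenance medium, against 51.7% and 47.2% of all genes. At a mean of 100 to 1000 counts the shares were 23.1% and 7.69% of 13 members, against 19.6% and 14.5%. Signs were the same in both media for 17 of the 34 members with a ratio in each (50%), against 53.8% of all genes. In both media past the rule, 3 members (8.33%) were higher on PUCL@CNT1, against 2.52% of all genes, and 0 were lower, against 3.17%. These were Sema3a, Robo3 and Ntn4, all of which had 0 counts on PUCL in maintenance medium. Robo3 and Ntn4 reached 10 counts on PUCL@CNT1 only, so they were tested through the platform where they stood higher. For Sema3a the ratio of PUCL@CNT1 over PUCL was 4.02 in differentiation medium (2.26 to 7.61), and in maintenance medium, with 7 counts against 0, at least 2.46 (lower 95% limit 1.52). For Robo3 the ratio was 4.86 in differentiation medium (1.99 to 14.3), and in maintenance medium at least 11.6 (lower 95% limit 8.93). For Ntn4 it was at least 9.40 in differentiation medium (lower 95% limit 7.17) and at least 4.57 in maintenance medium (lower 95% limit 3.22).

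**Figure D5:**
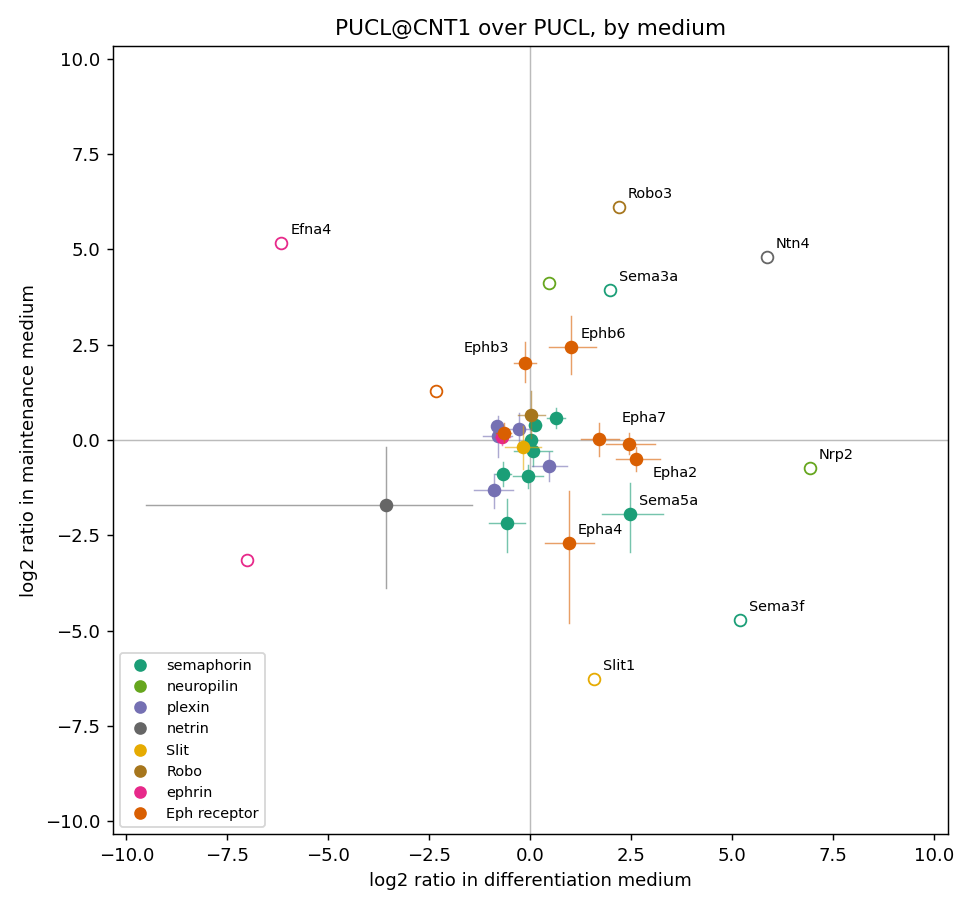
Log2 ratio of PUCL@CNT1 over PUCL in differentiation medium (x axis) and in maintenance medium (y axis) for the 34 members with a ratio in both media, coloured by family. Lines are 95% counting intervals; open circles have a 0 in at least 1 of the 4 counts. Epha2 and Epha7 lie far to the right near 0 on the y axis, and Sema3a, Robo3 and Ntn4 lie in the upper right.

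The platform difference itself changed between media, by the same sizes, for 13 members: 10 (27.8%) with a higher platform ratio in differentiation medium, against 15.4% of all genes, and 3 (8.33%) with a lower one, against 14.1%. Among the 9 of these with counts in every library, the platform ratio in differentiation medium exceeded that in maintenance medium by 21.1 times for Sema5a (9.95 to 44.6), 12.4 times for Epha4 (4.28 to 36.0), 8.64 times for Epha2 (5.70 to 13.1) and 5.78 times for Epha7 (3.74 to 8.92). Smaller values were 3.21 for Epha5 (2.10 to 4.91), 3.05 for Sema4d (1.77 to 5.26) and 2.23 for Plxnb3 (1.51 to 3.29). Lower ratios in differentiation medium were those of Ephb3, at 0.226 (0.153 to 0.334), and Plxnb2, at 0.435 (0.403 to 0.470). The other 4, Efna4, Nrp2, Sema3f and Slit1, had a 0 in at least 1 library and are given by their counts above. At a mean of 10 to 100 counts, 35.3% of 17 members were past the rule for this change, against 47.9% of all genes. At a mean of 100 to 1000 counts it was 38.5% of 13 members, against 26.9%. With 1 library in each group this change carries no test.

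A further list covered guidance genes outside the naming rule. This list of 66 other ligands, receptors and intracellular effectors had 60 in the files and 53 tested, of which 24.5% were past the size rule in each medium pair, 39.6% in the platform pair in differentiation medium and 22.6% in that in maintenance medium, against 31%, 31.3%, 30.8% and 26.1% of all genes in the same order of pairs. For the medium change 0 rose and 1 fell (1.89%, against the 2.81% of all genes given above), and for platform 0 were called. The gene that fell was Vegfa, the growth factor that also binds Nrp1, with 75 counts on PUCL@CNT1 and 176 on PUCL in differentiation medium, against 343 on PUCL@CNT1 and 445 on PUCL in maintenance medium. Its fitted log2 change was -1.79 (SE 0.491, edgeR adjusted p 0.0227), and 4 of 11 other settings kept it past the threshold, with adjusted p up to 0.68. With all libraries kept, the call was lost without the platform term (fitted change -1.67), in DESeq2 (-1.78) and in limma-voom (-1.66). The stricter low-count filter lost it too (-1.78). Fits with 1 library left out also lacked the platform term, so they cannot tie a loss to a library. Among these, the call was lost without PUCL@CNT1 differentiation, PUCL@CNT1 maintenance or PUCL maintenance. The fitted change was then -1.17 at its weakest, without PUCL@CNT1 differentiation.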

How the data were processed

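The authors deposited raw counts per gene symbol from 4 libraries, 1 per platform and medium. Per the labels' protocols, libraries were built from 500 ng of total RNA with the QuantSeq kit of Lexogen, a method that reads 3' ends; the strand setting of the counting is not given, so overlapping and antisense genes may share reads. Bowtie2, bedtools and rn6 are named in the submitters' processing notes; versions, annotation and duplicate handling are not given in the sources used here. No molecular identifiers are stated, so intervals cover counting error only.

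Rows of a symbol were summed (149 symbols had several rows, no member did). A gene was tested where any library held 10 or more of its counts. edgeR 4.0.16 (R 4.3.3) fitted platform and medium additively over the 4 libraries by quasi-likelihood, with 1 residual and 87.2 prior degrees of freedom and Benjamini-Hochberg adjustment over 10516 genes; p-values therefore rest mostly on the spread of other genes. Library pairs used ratios with exact 95% (Clopper-Pearson) intervals, 0.5 added for log2 values, and 3 counts per library in place of a 0 for bounds. The change of the platform difference was given a normal interval of the log ratio, with 0.5 added to each count. Alternatives were total counts, DESeq2 size factors, DESeq2 1.42.0, limma-voom 3.58.1, 2 other filters and other size limits. A term was also left out, alone or together with 1 library. Given in full are members past the size rule in both pairs of a kind or for the change between media, and the member of each family with the highest mean scaled count; the rest are given more briefly. The members, lists and tests were chosen with earlier results of these data known. The fit was tested on simulated data.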

Additional observations from a re-analysis of the deposited data

Results flagged for a closer look

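Sema5a, Sema3f and Efna4 differed between the medium pairs, since the only library pair on PUCL@CNT1 went one way past the size rule and the only pair on PUCL the other way. On PUCL@CNT1 in differentiation medium Sema5a was 7.38-fold higher, Sema3f at least 5.638-fold higher and Efna4 at least 6.03-fold lower. On PUCL in differentiation medium Sema5a had a ratio of 0.334, Sema3f was at least 4.248-fold lower and Efna4 at least 11.9-fold higher. The bounds put 3 counts in place of a 0 and leave out the error of the other count. The lower 95% limit for Sema3f on PUCL@CNT1 was 4.13 and for Efna4 on PUCL 9.18. The upper 95% limit of the ratio was 0.335 for Sema3f on PUCL and 0.228 for Efna4 on PUCL@CNT1. The difference was not tested, as each group was 1 library.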

How the results depend on the processing

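No member was called for medium or for platform under any of the 11 other settings of the fit, including each library left out; the lowest adjusted p of a member was 0.0525 (Epha7, medium, without the PUCL@CNT1 differentiation library). In DESeq2 some members, among them Sema3e, Sema3a, Robo3, Epha7, Epha2 and Epha5, had no adjusted p for platform and could not be called. No paired analysis was possible because each group was 1 library with no replicate number. The platform term of the fit already compares media within platforms. A count of 0 cannot show stability: members with an unadjusted p under 0.05 for medium ran from 0 to 7 over these settings. For medium, 296 genes were called, against 64 with a mean of 50 or more counts, 170 in DESeq2, 176 without the platform term and 16 to 203 when 1 library was also left out. For platform, 48 were called, against 18 with DESeq2 size factors, 28 with total counts, 25 with no low-count filter, 0 with a mean of 50 or more counts, 87 in limma-voom, 0 without the medium term and 0 to 26 with 1 library also left out. Fitted platform differences turned sign for 3 named members when 1 library and the medium term were left out. They then ran from -0.04 to 8.09 for Sema3a (lowest without PUCL@CNT1 in differentiation medium). The ranges were -0.28 to 2.68 for Epha7 and -0.21 to 2.41 for Epha2 (lowest for both without PUCL in differentiation medium). These settings drop samples by construction. The number of members whose platform difference changed between media was 13, and 23 at 2-fold whatever the interval. Counts of members past the size rule in the 4 pairs stayed within 1.5 times under other scalings and size limits. Low counts limit most members: the median of their mean count was 85.2.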
